A study of Mus musculus with 49 samples.

Results

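Immature B cells that had turned on a Rag2 reporter after 1 day with herbimycin A (GFPpos) were compared with untreated, reporter-negative immature B cells (GFPneg). The 6 arrays of this comparison, 3 GFPpos and 3 GFPneg, were taken by their titles from the 49 arrays of the series. In both groups the bone marrow came from mice that carry both an anti-HEL immunoglobulin transgene (HEL-Ig) and a Rag-2-GFP reporter, and had been expanded in interleukin-7 and then kept for 1 day without it. GFPpos cultures also contained herbimycin A, and their cells were sorted as surface IgM+ GFP+. GFPneg cultures had no drug, and their cells were sorted as surface IgM+ GFPneg. The receptor genes of these mice come from a conventional transgene against hen egg lysozyme, and GFP is driven by Rag2 control regions on a bacterial artificial chromosome. Drug and gate changed together, so exposure to herbimycin A and selection of GFP+ cells cannot be told apart, and the level of Rag2 itself is tied to the gate. The reporter transcript was not measured. The study's methods give 2 or 3 sorts for groups such as these, and not whether each array came from its own sort, so p-values measure only the spread between these arrays, which may be technical. The study used this comparison to ask whether blocking tyrosine kinases below the receptor moves immature B cells towards the gene expression of earlier stages.

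The recombinase encoded by Rag1 and Rag2 cuts the V, D and J segments of the immunoglobulin genes, first at the heavy chain and later at the light chain loci. A developing B cell turns both genes down once a working receptor reaches its surface, and turns them on again when it edits its light chain. Maturation beyond that stage brings higher MHC class II, more inhibitory coreceptors and, in culture without interleukin-7, exit from the cell cycle. Herbimycin A is an ansamycin antibiotic used as a tyrosine kinase inhibitor, and ansamycins are also known to bind the chaperone Hsp90.

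Expression was read on Affymetrix U74Av2 arrays as a signal per probe set, a group of short probes to the same transcript. Median signals were 441 to 492 units in GFPpos and 471.3 to 512.5 units in GFPneg arrays. Across all probe sets log2 signals correlated at 0.939 to 0.957 within a group. The first GFPpos array stood apart, since its correlation with the GFPneg arrays was 0.906 to 0.918, against 0.93 to 0.945 for the other GFPpos arrays. It held the most extreme GFPpos value for 89 of the 137 probe sets called higher below and for 72 of the 121 called lower. Markers of the B lineage were high in all 6 arrays. Cd79a, the signalling chain of the receptor, had 51164, 58933 and 46692 units in GFPpos and 71106, 66028 and 58687 units in GFPneg arrays. Pax5, the factor that fixes B cell identity, had 4428, 7055 and 8155 units in GFPpos and 5761, 8060.4 and 8176 units in GFPneg arrays. The groups overlapped for both, and none of the 10 measured B-lineage markers passed the test on its brightest probe set, by which list members are counted throughout (1.21% of all probe sets were called lower and 1.37% higher). A second probe set of 1 of them, Blnk, was called higher and is given with the pre-B receptor genes.

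Of 9977 probe sets, 258 (2.59%) differed between GFPpos and GFPneg cells in limma's moderated test at a Benjamini-Hochberg adjusted p under 0.05. There were 137 higher in GFPpos cells, which named 124 genes, and 121 lower, which named 108 genes. All 258 had groups that did not overlap, which held for 29% of all probe sets, 1394 with GFPpos above and 1504 with GFPpos below. At an unadjusted p under 0.05 there were 2083 probe sets. Among the called probe sets, 117 of those higher and 109 of those lower had moved by at least 2-fold in geometric means. The standard error of a log2 difference had a median of 0.272 and ran up to 2.33. The number of calls depended on the settings and on single arrays: it was 91 without GFPpos 1, 10 without GFPpos 3 and 1 without GFPpos 2 or any GFPneg array, and 663 when all 37 U74Av2 arrays shared an estimate of spread, of which 208 were among the 258. The plot of differences against mean signal shows called probe sets among dim and bright ones, with none among the brightest.

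**Figure D1:**
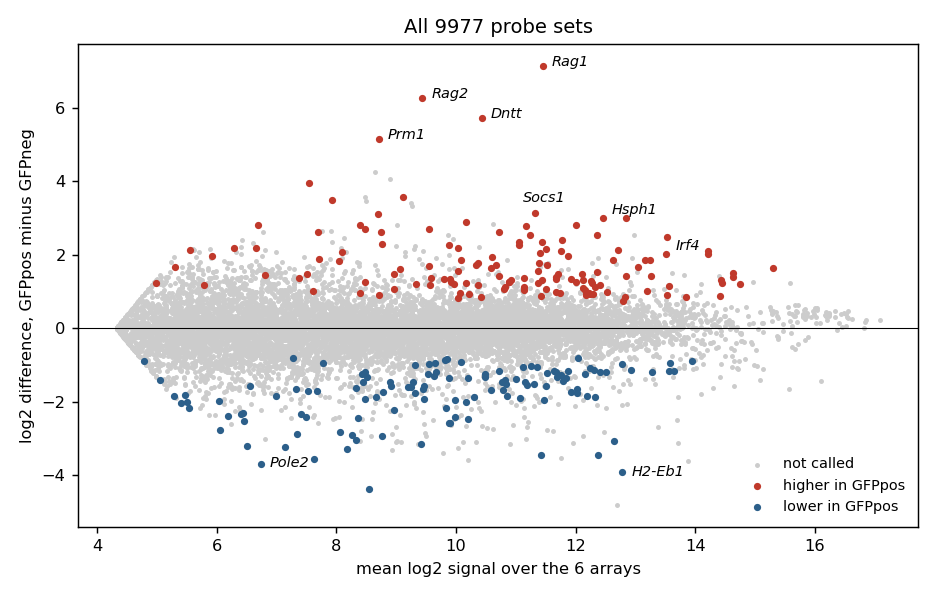
Log2 difference (GFPpos minus GFPneg, vertical axis) against mean log2 signal over the 6 arrays (horizontal axis) for 9977 probe sets, one point each. Red points are the 137 probe sets called higher and blue points the 121 called lower in GFPpos cells, and Rag1 lies farthest from 0 at 7.14.

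In these sorted populations a change in the share of cells that express a gene and a change in RNA per cell cannot be told apart. The largest rises lay among the recombination genes. Rag1, the catalytic subunit of the recombinase, had 43338, 29792 and 28754 units in GFPpos arrays and 245, 253 and 212 units in GFPneg arrays. Each GFPpos value lay over 100 times above each GFPneg value, and the log2 difference of 7.14 (SE 0.21, limma adjusted p = 0.00122) was the largest of all. Rag2, the partner subunit whose control regions drive the reporter, had 4841, 6670.2 and 7040.4 units in GFPpos arrays and 83.6, 40.6 and 143 units in GFPneg arrays. Its log2 difference was 6.28 (SE 0.48, limma adjusted p = 0.0185), and it is given as a description since the gate selected for the reporter.

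Dntt, the terminal transferase that adds untemplated bases at junctions and marks pro-B cells, had 29178, 6578 and 5219 units in GFPpos arrays. In GFPneg arrays it had 161, 180.3 and 234 units. The groups did not overlap, but the first GFPpos array stood far above the others, so that the log2 difference of 5.72 carried an SE of 0.69 (limma adjusted p = 0.03). A second, dimmer probe set of Dntt differed by 4.24 and did not pass (adjusted p = 0.063).

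Xrcc6, the Ku70 end-binding subunit used in joining, had 18067, 10882 and 10485 units in GFPpos arrays and 2339.9, 1843 and 2401 units in GFPneg arrays (log2 difference 2.55, SE 0.27, limma adjusted p = 0.0247). Of 12 listed genes of the recombination machinery 8 were measured by a probe set that matches 1 gene. These 4 rose, none fell and 4 stayed below the threshold, with a median log2 difference of 1.35 beside −0.02 over all probe sets. Those 4 were Xrcc5, the Ku80 subunit, at 0.15, Polm at 0.03, Prkdc, the end-joining kinase, at −1.09, and Hmgb2 at −1.47. With all 37 arrays in the fit, 4 members of the list were called higher and 2 lower. Rag2, which is tied to the gate, counts among the rises and in the median.

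In RefSeq's order of protein-coding genes on chromosome 2, Traf6 lies next to Rag1, which lies next to Rag2. Traf6, an adaptor of the NF-κB pathway, had 28399.6, 27452 and 28069 units in GFPpos arrays and 4556, 5291 and 5217 units in GFPneg arrays. Its 3 probe sets were each called higher, with log2 differences of 2.48 (SE 0.13, limma adjusted p = 0.00758), 2.34 and 1.78. The nearest measured genes further out did not pass, with 0.27 for Api5 on the Rag2 side and 0.39 for Commd9 on the Traf6 side. The NF-κB list as a whole had no other call among 16 measured members, and its median was 0.14. These neighbours were picked after their values were seen.

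**Figure D2:**
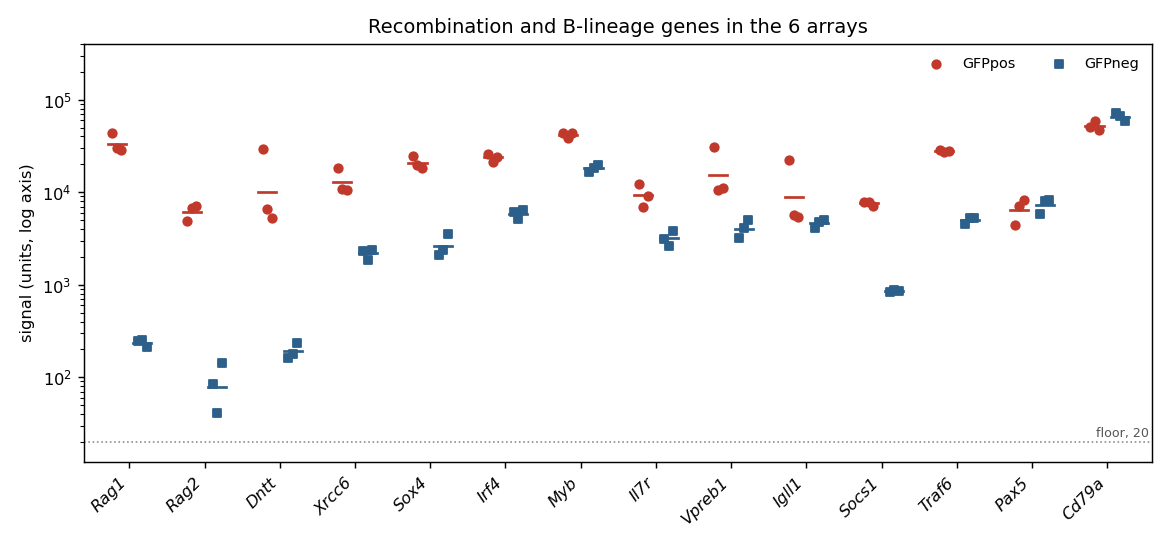
Signal in units (log axis) of 14 recombination and B-lineage genes in 3 GFPpos (red circles) and 3 GFPneg (blue squares) arrays. Horizontal bars are geometric means and the dotted line is the floor of 20 units, and levels can be compared within a gene but not between genes. Rag1, Rag2 and Dntt are separated by over 10-fold, while Cd79a and Pax5 overlap.

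Transcription factors of early B cells moved in both directions. Sox4, a factor needed by pro-B cells, had 24782, 19753 and 18222 units in GFPpos arrays and 2080.4, 2353 and 3546 units in GFPneg arrays (log2 difference 3.00, SE 0.26, limma adjusted p = 0.0185). Irf4, which acts in pre-B cell differentiation and light chain recombination, had 26019, 21277 and 24113 units in GFPpos arrays and 6055, 5095 and 6349 units in GFPneg arrays (2.03, SE 0.16, adjusted p = 0.0185). Myb, a factor of lymphoid progenitors, had 44095, 38344 and 43784 units in GFPpos arrays and 16487, 18290.5 and 19673 units in GFPneg arrays (1.21, SE 0.14, adjusted p = 0.0294). For all 3 genes every GFPpos array lay above every GFPneg array with similar values within a group.

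Xbp1, a factor of the secretory programme, fell to a mean of 1133 units in GFPpos cells, against 2559 units in GFPneg cells (log2 difference −1.16, limma adjusted p = 0.0428). Of 25 measured transcription factors of the list, 3 rose, 1 fell and 21 stayed below the threshold, with a median of 0.04. Lef1, a factor of pro-B and pre-B cells, differed by 1.91 with an adjusted p of 0.0942, and Prdm1, the BLIMP repressor, by 2.63 with an adjusted p of 0.0517. Mef2c, a factor of B cell maturation, did not pass on its brightest probe set, at −1.03 with an adjusted p of 0.0532. Of its other 3 probe sets 2 passed, at −1.48 and −1.27, and the last had −1.29 with an adjusted p of 0.0556. Spib, a partner of PU.1, had −1.04 on its brightest probe set (adjusted p = 0.0884) and was called lower on another, at −1.14 (adjusted p = 0.0465).

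Of the genes of the pre-B receptor and of progenitor surfaces, 3 of 4 and 11 of 14 had higher values in GFPpos cells, and none passed on its brightest probe set. Vpreb1, a surrogate light chain component, had 30999, 10468 and 11070.2 units in GFPpos arrays and 3205, 4083 and 5023 units in GFPneg arrays. The groups did not overlap, yet GFPpos 1 was about 3 times the other GFPpos arrays, and the log2 difference of 1.92 had an SE of 0.48 (limma adjusted p = 0.0997). Igll1, the other surrogate light chain component, had 22018, 5664 and 5394 units in GFPpos arrays and 4073, 4761 and 5017 units in GFPneg arrays (0.93, adjusted p = 0.435). All GFPpos arrays lay above the GFPneg arrays, but GFPpos 2 and 3 only by a small margin.

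Il7r, the receptor subunit for interleukin-7, had 12355, 6979 and 9060.3 units in GFPpos arrays and 3139, 2642 and 3816 units in GFPneg arrays (log2 difference 1.54, limma adjusted p = 0.0527). Blnk, the adaptor that joins the receptor to its kinases, differed by 1.25 with an adjusted p of 0.0581 on its brightest probe set and by 1.24 with 0.0414 on another. The medians of the pre-B receptor and progenitor receptor lists were 1.09 and 0.48. Without GFPpos 1 those medians were 0.65 and 0.26.

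Of 20 measured heat shock proteins, 6 rose, none fell and 14 stayed below the threshold, with a median log2 difference of 0.82 beside −0.02 over all probe sets. Values were higher in GFPpos cells for 19 of the 20, and in 15 the groups did not overlap with GFPpos above. Such a separation held for 1394 of all 9977 probe sets. Hsph1, an exchange factor of the Hsp70 family, had 19955, 13804 and 14549 units in GFPpos arrays and 1920.3, 1924 and 2069 units in GFPneg arrays (3.01, SE 0.19, limma adjusted p = 0.0132).

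Hspa8, the constitutive Hsp70, had 49257, 32186 and 35778 units in GFPpos arrays and 11119.5, 8544 and 8764 units in GFPneg arrays (log2 difference 2.03, SE 0.22, limma adjusted p = 0.0278). Dnaja1, a J-protein partner of Hsp70, had 15301, 19358 and 17428 units in GFPpos arrays and 4824, 4833 and 4774 units in GFPneg arrays (1.85, SE 0.14, adjusted p = 0.0185). Chordc1, a cochaperone of Hsp90, had 14144, 11171 and 10821 units in GFPpos arrays and 4347, 4722 and 4429 units in GFPneg arrays (1.41, SE 0.16, adjusted p = 0.0286). In all of these genes the lowest GFPpos array exceeded the highest GFPneg array at least 2-fold.

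The other members called were Hspe1, the mitochondrial chaperonin partner, at 1.86 (limma adjusted p = 0.0482) and Fkbp4, an Hsp90 cochaperone, at 0.98 (adjusted p = 0.0428). A second probe set of Fkbp4 had 0.81 with an adjusted p of 0.0984. Hspa1b, the inducible Hsp70, had the largest difference of the list at 3.42 with an SE of 0.67 and did not pass (adjusted p = 0.066). Without GFPpos 1 the list kept a median of 0.79, with 4 members called higher.

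Heat shock elements are runs of GAA and TTC units in alternating orientation that the heat shock factor binds. The run of 3 units, GAANNTTCNNGAA or TTCNNGAANNTTC, reads on either strand as one of these forms, and it was found in 0.6% of all 32851 RefSeq windows from 250 bases before to 50 after a gene start (GRCm38.p6). It was found in 4 of the 17 heat shock genes with a window, 3 of them called. Of these, Hspd1 and Hspe1 have overlapping windows on opposite strands, so the same letters count for both genes. A gene was counted if any of its windows held the letters, here and for the motifs below, so shares of genes and of windows are unlike measures. Stretches of the windows of these 3 are shown because they are the called genes that hold the run, which is in capitals.
Hsph1: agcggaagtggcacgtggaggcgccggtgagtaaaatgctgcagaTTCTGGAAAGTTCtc
Chordc1: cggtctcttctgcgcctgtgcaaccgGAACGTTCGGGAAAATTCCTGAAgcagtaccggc
Hspe1: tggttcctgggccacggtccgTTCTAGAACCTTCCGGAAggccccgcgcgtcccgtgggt

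The Hsph1 stretch lies at chr5:149636286-149636345 on the minus strand, with the run at 16 to 28 bases after the start. The Chordc1 stretch is chr9:18292237-18292296 on the plus strand, and the Hspe1 stretch is chr1:55088038-55088097 on the plus strand, where overlapping runs begin 89 bases before the start. The shorter pair of units, GAANNTTC or TTCNNGAA, was in 11 of the 17 genes, the 5 called ones with a window included, and in 15.06% of all windows. The median log2 difference was 1.41 for the 11 genes with the pair and 0.23 for the 6 without it. Hspa8 had no entry. Such matches describe letters and not bound sites.

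Of 14 measured MHC class II genes 5 fell. H2-Eb1, the beta chain of the class II molecule I-E, had 795, 2949 and 2484 units in GFPpos arrays and 23286, 28538 and 31000.4 units in GFPneg arrays (log2 difference −3.93, SE 0.53, limma adjusted p = 0.04). H2-Ab1, the beta chain of I-A, had 1005, 1624 and 2526 units in GFPpos arrays and 15967, 19569 and 17885 units in GFPneg arrays (−3.47, SE 0.35, adjusted p = 0.0238). The highest GFPpos array stayed over 6-fold below the lowest GFPneg array for both chains.

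H2-DMb1, a chain of the H2-DM complex that loads peptides, had 1441, 2943 and 2514 units in GFPpos arrays and 19376, 18423 and 18021 units in GFPneg arrays (log2 difference −3.08, SE 0.29, limma adjusted p = 0.023). H2-DMb2, its second beta chain gene, had 386, 1391 and 1058 units in GFPpos arrays and 8633, 9772 and 8934 units in GFPneg arrays (−3.46, SE 0.49, adjusted p = 0.0424). Both beta chain genes are close copies, and cross-hybridization between their probes was not tested. Ciita, the transactivator on which class II transcription depends, had 746, 1087 and 994 units in GFPpos arrays and 2192, 2228 and 2155 units in GFPneg arrays (−1.24, SE 0.18, adjusted p = 0.0428).

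Besides these 5, none of the 14 class II genes rose and 9 did not pass, and in 13 the groups did not overlap with GFPpos below. Such a separation held for 1504 of all 9977 probe sets. The median of the list was −1.62 and its values ran from −4.81 to 0.02. GFPpos 1 had the lowest value of the GFPpos arrays in all 14. H2-Aa, the alpha chain of I-A, had 136, 3258 and 4395 units in GFPpos arrays and 39918, 34925 and 31081 units in GFPneg arrays, and its difference of −4.81 had an SE of 1.37 (limma adjusted p = 0.134). Without GFPpos 1 the list's median was −1.21, with 6 members called lower. Cd74, the invariant chain, had 10618, 42167 and 45127 units in GFPpos arrays and 82860.4, 90011 and 85723 units in GFPneg arrays (−1.66, adjusted p = 0.196).

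Class II promoters carry a Y box, an inverted CCAAT sequence. The letters CTGATTGG on either strand were in 4 of the 11 class II genes with a window and in 4.1% of all windows. The median log2 difference was −2.63 for these 4 and −1.59 for the genes without the letters. The called genes H2-DMb1 and H2-DMb2 lacked them, and the called genes H2-Ab1 and Ciita had no window. H2-Eb1, the called gene among them, and H2-Aa, the gene with the largest difference, are shown with the match in capitals.
H2-Eb1: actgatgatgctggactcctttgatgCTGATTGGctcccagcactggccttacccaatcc
H2-Aa: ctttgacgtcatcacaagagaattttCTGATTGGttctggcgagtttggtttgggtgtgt
The H2-Eb1 stretch lies at chr17:34305779-34305838 on the plus strand and the H2-Aa stretch at chr17:34287841-34287900 on the minus strand (GRCm38.p6), with the match starting 62 and 51 bases before the gene start.

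Of 10 measured genes of class I processing 3 fell. Tap1, a subunit of the peptide transporter, had 2043, 2666 and 2727 units in GFPpos arrays and 8596, 8232 and 9906 units in GFPneg arrays (log2 difference −1.85, SE 0.18, limma adjusted p = 0.023). The groups lay over 3-fold apart with little spread. Psmb9 and Psmb8, subunits of the immunoproteasome, differed by −1.14 (adjusted p = 0.039) and −0.96 (adjusted p = 0.0485). None of the 10 rose, 7 did not pass, and the median was −0.77. None of 28 members of the standard proteasome was called, and their median was 0.22.

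**Figure D3:**
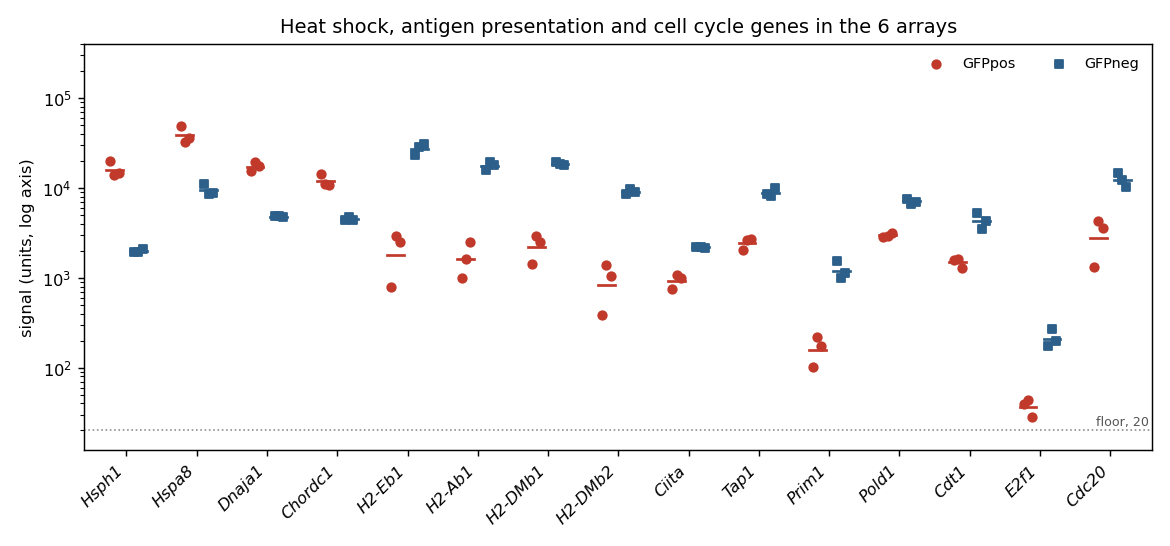
Signal in units (log axis) of 15 heat shock, antigen presentation and cell cycle genes in 3 GFPpos (red circles) and 3 GFPneg (blue squares) arrays, with geometric means as bars and the floor of 20 units dotted. The 4 heat shock genes lie higher and the other 11 lower in GFPpos arrays, and no gene's groups overlap.

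Of 23 measured genes of DNA replication 4 fell. Prim1, the primase subunit, had 101, 218 and 176 units in GFPpos arrays and 1546, 995 and 1138 units in GFPneg arrays (log2 difference −2.94, SE 0.34, limma adjusted p = 0.029). Pold1, the catalytic subunit of polymerase delta, had 2871, 2906 and 3113 units in GFPpos arrays and 7611, 6671 and 6975 units in GFPneg arrays (−1.26, SE 0.13, adjusted p = 0.0238). Cdt1, which licenses origins, had 1578, 1624 and 1276 units in GFPpos arrays and 5288, 3515 and 4261 units in GFPneg arrays (−1.53, SE 0.21, adjusted p = 0.0407).

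With Ung, the uracil glycosylase, at −1.18 (limma adjusted p = 0.0382), these were the 4 calls of the 23, with none higher and 19 that did not pass. The median of the 23 was −1.60, and 19 of them had every GFPpos array below every GFPneg array, as had 1504 of all 9977 probe sets. When all 37 arrays shared their estimate of spread, 18 of the 23 were called lower. Pole2, a subunit of polymerase epsilon outside that list, lay near the floor in GFPpos arrays with 22.4, 21 and 55.6 units, and had 439, 339 and 379 units in GFPneg arrays (−3.69, SE 0.41, adjusted p = 0.0286).

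E2F factors drive many replication genes through the letters TTTCCCGC or TTTGGCGC, searched here on both strands. They were found in 8 of the 20 replication genes with a window, against 1.56% of all windows. The median log2 difference was −1.69 for these 8 and −1.79 for the 12 without the letters. The called genes Prim1 and Ung lack them. The called genes that hold them are Cdt1 and Pold1, shown here with the match in capitals.
Cdt1: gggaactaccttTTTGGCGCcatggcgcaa
Pold1: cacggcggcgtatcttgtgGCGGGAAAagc
The Cdt1 stretch is chr8:122568035-122568064 on the plus strand and the Pold1 stretch chr7:44548766-44548795 on the minus strand (GRCm38.p6), both just after the gene start.

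All mitotic genes of the list had lower values in GFPpos cells, without a call. Cdc20, the activator of the anaphase-promoting complex, had 1321, 4297 and 3621 units in GFPpos arrays and 14508, 12291 and 10362 units in GFPneg arrays (log2 difference −2.16, SE 0.48, limma adjusted p = 0.0817). Mad2l1, of the spindle checkpoint, had 437, 1565 and 1352 units in GFPpos arrays and 7597, 5061 and 4772 units in GFPneg arrays (−2.54, SE 0.54, adjusted p = 0.0763). GFPpos 1 was about 3-fold below the other GFPpos arrays in both genes. All 20 measured members were below 0, and the median was −2.12. In 18 the groups did not overlap with GFPpos below, as in 1504 of all 9977 probe sets. None passed the limma test on the 6 arrays, 17 of the 20 were called lower with all 37 arrays in the fit, and without GFPpos 1 the median was −1.52.

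Regulators of entry into the cycle included E2f1, with 39.3, 44 and 28.3 units in GFPpos arrays and 173, 272 and 196 units in GFPneg arrays (log2 difference −2.52, SE 0.26, limma adjusted p = 0.0238). It was the only call among 16 G1 regulators, whose median was −0.78. Foxm1, the factor of the G2 and M phase genes, had 1082, 2024 and 1375 units in GFPpos arrays and 7286, 4827 and 4885 units in GFPneg arrays (−1.94, adjusted p = 0.0446). Its second probe set differed by −4.39 (adjusted p = 0.0185). Haus5, an augmin subunit that acts on spindle microtubules, differed by −3.56 (SE 0.29, adjusted p = 0.0185).

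**Figure D4:**
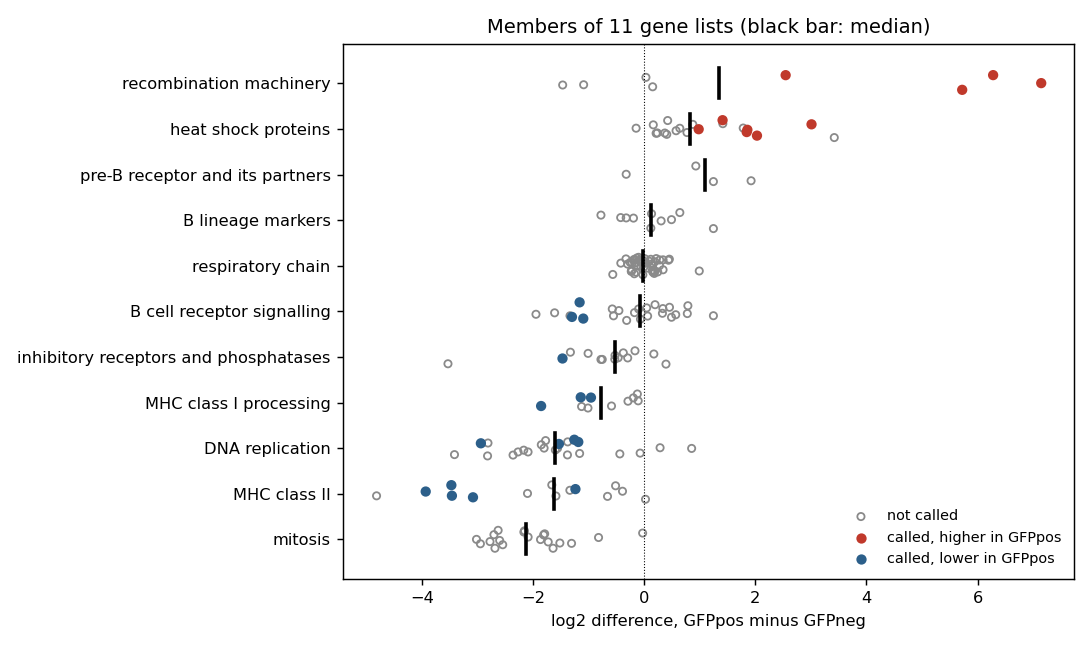
Log2 difference (GFPpos minus GFPneg) of the measured members of 11 gene lists, a point per gene, filled red where called higher and blue where called lower, open where not called. Black bars are medians, which run from 1.35 for the recombination machinery to −2.12 for mitosis.

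Receptor signalling genes had few calls. Vav1, an exchange factor below the receptor, had 2938, 3463 and 3576 units in GFPpos arrays and 6886, 6592 and 7812 units in GFPneg arrays (log2 difference −1.10, SE 0.15, limma adjusted p = 0.0412), and its other probe sets had −0.91 and −1.26 without passing. Sh2b3, an adaptor that restrains cytokine signals, and Sh3bp5, a Btk-binding protein, fell by 1.16 and 1.30 (adjusted p = 0.0485 and 0.0482). These 3 of 24 fell on their brightest probe sets, with a median of −0.08, and Blnk was called higher on its second probe set alone.

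Among inhibitory receptors and phosphatases Pirb, a paired immunoglobulin-like receptor, had 284, 414 and 448 units in GFPpos arrays and 1074, 872 and 1191 units in GFPneg arrays (log2 difference −1.47, limma adjusted p = 0.0481). It was the only call of 14, and the median was −0.53. Ptpn6, the phosphatase SHP-1, had 256, 1730.1 and 2410.5 units in GFPpos arrays and 9977, 12362 and 13305 units in GFPneg arrays. Its groups lay over 4-fold apart, but the spread among GFPpos arrays gave an SE of 0.87 to the difference of −3.53 (adjusted p = 0.0996).

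Markers of mature B cells showed the same spread. Ms4a1, which encodes CD20, had 793, 10651 and 9302 units in GFPpos arrays and 50759.9, 56619 and 51158 units in GFPneg arrays (log2 difference −3.62, SE 1.04, limma adjusted p = 0.136). Itgb7, a homing integrin, had 662, 1654 and 1164 units in GFPpos arrays and 4345, 4200.3 and 4406 units in GFPneg arrays (−1.99, SE 0.35, adjusted p = 0.0532). Of 19 measured markers none fell and 1 rose: Ccr7, a lymph node homing receptor, had 2763, 2563 and 2387 units in GFPpos arrays and 1072, 1176 and 1471 units in GFPneg arrays (1.06, adjusted p = 0.0481). The list's median was −0.53, and 0.00 without GFPpos 1. Ccr6, a mucosal homing receptor, had 126, 67.1 and 166 units in GFPpos arrays and 644, 834 and 1109 units in GFPneg arrays (−2.91, SE 0.40, adjusted p = 0.0407).

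Immediate early genes diverged. Egr1, induced by receptor signals, had 343, 554 and 362 units in GFPpos arrays and 1182, 1143 and 1344 units in GFPneg arrays (log2 difference −1.57, SE 0.23, limma adjusted p = 0.0424). Btg2, an antiproliferative gene that is also a p53 target, had 30722, 28468 and 29356 units in GFPpos arrays and 14475, 15976 and 17916 units in GFPneg arrays (0.88, SE 0.14, adjusted p = 0.0481). These were the only calls of 16. Jun had 2834, 1539.9 and 1712 units in GFPpos arrays and 192, 443 and 87 units in GFPneg arrays, a difference of 3.33 with an SE of 0.63 that did not pass (adjusted p = 0.0626).

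Socs1, which inhibits cytokine receptor kinases, showed little spread. It had 7889.7, 7841 and 7018 units in GFPpos arrays and 834, 878 and 854 units in GFPneg arrays, so that its log2 difference of 3.15 had an SE of 0.13 (limma adjusted p = 0.00346). It was the only call among 16 interferon targets, whose median was −0.08. Bcl2l1, the survival protein Bcl-xL, had 6682, 6639.9 and 6716 units in GFPpos arrays and 3299.9, 3101 and 3869.7 units in GFPneg arrays (0.97, SE 0.14, adjusted p = 0.0428), the only call of 10 in the Bcl2 family. A dim probe set of the same gene did not pass, at 0.08.

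FoxO targets had 3 calls of 17, all higher: Rag1, Rag2 and Sesn1, a stress sensor, at 0.74 (limma adjusted p = 0.0494), with a list median of 0.74. Rag2 is tied to the GFP gate and Rag1 is its partner, so apart from these genes Sesn1 was the only call of the list. Unfolded protein response genes had Herpud1 higher at 1.35 (adjusted p = 0.0407) and Edem1 lower at −1.64 (adjusted p = 0.0428) among 16, both factors of endoplasmic reticulum degradation. The oxidant response had Gstm1, a glutathione transferase, higher at 1.09 (adjusted p = 0.0335) as its only call of 12. None of 47 respiratory chain genes, 12 glycolysis genes and 10 cholesterol synthesis genes passed on its brightest probe set, with medians of −0.02, −0.29 and −0.50, while Slc2a3, a glucose transporter in the glycolysis list, was called lower on a second probe set at −1.19 (adjusted p = 0.042).

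Several of the largest changes lay outside these lists. Prm1, a protamine known from spermatids, had 1833, 2408 and 3504 units in GFPpos arrays and 20, 94.7 and 179 units in GFPneg arrays. The difference of 5.16 (SE 0.84, limma adjusted p = 0.0482) depends on a value at the floor of 20 units. Epha2, an ephrin receptor kinase, had 2364, 1651 and 1781 units in GFPpos arrays and 262, 87.2 and 177 units in GFPneg arrays (3.58, SE 0.43, adjusted p = 0.0305). The groups of both genes lay well apart.

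Dgcr6 rose by 3.11 (limma adjusted p = 0.0428) and Ptov1 by 2.88 (adjusted p = 0.0427). Igfbp4, a binding protein of insulin-like growth factors, was called on 1 of its 3 probe sets, at 3.50 (adjusted p = 0.0238), while its brightest had 1.38 (adjusted p = 0.0579) and the other −0.71. On the lower side H1f10, a linker histone, had 80.4, 102 and 93.9 units in GFPpos arrays and 992, 647 and 1147 units in GFPneg arrays (log2 difference −3.30, SE 0.26, adjusted p = 0.0185).

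Ibsp, a bone matrix sialoprotein, had 44.3, 40.4 and 53.3 units in GFPpos arrays and 464, 416 and 421 units in GFPneg arrays (log2 difference −3.24, SE 0.16, limma adjusted p = 0.00678), and its other probe set, near the floor, had 0.16. Cdh5, the endothelial cadherin, had 23.1, 40.5 and 28.6 units in GFPpos arrays and 279, 235 and 326 units in GFPneg arrays (−3.21, SE 0.26, adjusted p = 0.0185). C1ra, a complement protease, differed by −3.06 (adjusted p = 0.0238), against 0.44 on its second probe set. In GFPpos cells all of these probe sets lay below the arrays' median signals.

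Few immunoglobulin probe sets were called. None of 38 heavy chain probe sets was called, with a median of 0.20, and 1 of 36 κ chain probe sets was called higher, with a median of 0.54. That probe set, which the annotation pairs with Igkv9-120, had 1189.4, 604 and 545 units in GFPpos arrays and 21, 53.8 and 94.5 units in GFPneg arrays (log2 difference 3.95, SE 0.63, limma adjusted p = 0.0473). The groups were far apart, but it is marked as matching a family of sequences, and the other 2 probe sets of that gene had −0.19 and 0.60. Both λ chain probe sets had negative differences that did not pass, with a median of −0.94. Sequences shared among V segments leave the segment uncertain, and which chain gave the signal of the called probe set was not tested.

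Markers of other cell types were seldom called. Summed signals of 18 measured myeloid markers were 5920 to 9320 units in GFPpos and 8069 to 9212 units in GFPneg arrays, and none was called. For 12 T cell markers the sums were 7830 to 9856 units in GFPpos and 7148 to 7358 units in GFPneg arrays, with Cd3d, Cd3e, Cd3g, Cd5 and Cd8a under 200 units in all 6 arrays. Thy1 was the only one called on its brightest probe set, at 280.4, 218 and 381 units in GFPpos arrays and 829, 795 and 759.9 units in GFPneg arrays (log2 difference −1.47, limma adjusted p = 0.0462). Zap70, a T cell receptor kinase, had −2.48 on its brightest probe set (adjusted p = 0.098), and a dimmer one was called lower, at −2.39 (adjusted p = 0.0428). None of 7 NK, 7 erythroid and 13 stromal markers was called on its brightest probe set. The collagen gene Col3a1 was called lower on a second probe set near the floor, at −1.43 (adjusted p = 0.0428), against −0.62 on the brighter one.

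Among 13 mast and basophil markers, of which 8 stayed under 200 units in all arrays, Cma1 rose on the brightest of its 3 probe sets, with 237, 148 and 130.5 units in GFPpos arrays and 35.8, 31 and 44.6 units in GFPneg arrays (limma adjusted p = 0.0382). The 6 measured plasma cell markers summed to 23670 to 29200 units in GFPpos and 8385 to 9859 units in GFPneg arrays. Most of that sum was Irf4, which B cells express too and which was called higher. Xbp1 was called lower, at −1.16, and Prdm1 had the largest difference, 2.63, without passing. Sdc1 had a limma adjusted p of 0.242 and Jchain of 0.348. Whether admixed cells take part in any single result was not tested.

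The same genes were then set beside other comparisons, whose groups share no array with GFPpos and GFPneg. FxE HA cells, immature B cells sorted from marrow of Bcl-2 transgenic mice and kept 1 to 2 days with herbimycin A (n = 6), were compared with FxE Ctrl cells kept in medium (n = 4). There 416 probe sets were called (4.17%), 158 higher and 258 lower. Cre-Mlo cells, IgM-low cells of B1-8h/3-83(kappa)/Mx-Cre marrow cultured with interferon-αβ for 2 days (n = 4), were compared with Ctrl-Mhi cells, grown alike from marrow without Mx-Cre and sorted as IgM high (n = 4). There 853 probe sets were called (8.55%), 443 higher and 410 lower. Both comparisons were fitted with the GFPpos and GFPneg arrays included, so they share an estimate of spread with them. Those fits held more arrays than the fit of GFPpos against GFPneg, so counts of calls here and below are not like for like.

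Of the 137 probe sets called higher in GFPpos cells, 118 had a positive difference in FxE HA and 126 in Cre-Mlo cells. Of the 121 called lower, 92 and 109 had a negative one. Together this was the same sign for 81.4% of the calls in FxE HA and 91.1% in Cre-Mlo cells, beside 56.4% and 61.3% of all probe sets. The difference between comparisons was tested as a contrast in limma, and 37 probe sets (0.371%) differed from FxE HA and 38 (0.381%) from Cre-Mlo cells. Relative to FxE HA, 17 were more positive and 20 more negative in GFPpos cells, and relative to Cre-Mlo 26 and 12. At an unadjusted p under 0.05 there were 972 and 1220. Heavy chain probe sets were among the 26, and the rearranged heavy chain gene was deleted by design in Cre-Mlo cells. That of Ighv1-54, for example, had 0.85 in GFPpos and −5.52 in Cre-Mlo cells. The largest contrast was that of the called Igkv9-120 probe set, at 7.52 (limma adjusted p = 0.000108). It had 3.95 in GFPpos and −3.57 in Cre-Mlo cells.

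The rise of Rag1 over its own control exceeded those of both other comparisons. Its log2 difference of 7.14 stood against 2.53 in FxE HA (contrast 4.61, limma adjusted p = 0.000511) and 4.06 in Cre-Mlo cells (3.09, adjusted p = 0.000548). For Rag2, which the GFP gate favours, 6.28 stood against 0.71 (adjusted p = 0.0105) and 2.86 (adjusted p = 0.00674). Sox4 and Irf4 rose by 3.00 and 2.03, against 0.29 and 0.00 in FxE HA cells (adjusted p = 0.0188 and 0.0105) and 2.37 and 1.58 in Cre-Mlo cells (adjusted p = 0.427 for both). FxE HA cells were not sorted for a reporter, so the gate and the source of the cells cannot be told apart here. The paper reports Rag1 much higher in Ctrl-Mhi cells than in HEL-Ig immature B cells, with similar differences for Rag2. The Rag1 and Rag2 contrasts with Cre-Mlo therefore compare rises from unlike control levels and not the levels reached.

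Of 20 heat shock genes, 6 rose in GFPpos and 14 in FxE HA cells, and 5 differed from Cre-Mlo cells. Hsph1 differed by 3.01 in GFPpos, 2.94 in FxE HA and 0.07 in Cre-Mlo cells, and the contrast with Cre-Mlo was 2.94 (SE 0.29, limma adjusted p = 0.000508). Hspa8 had 2.03, 2.21 and −0.12 (contrast with Cre-Mlo 2.15, adjusted p = 0.00165), and Dnaja1 had 1.85, 1.22 and 0.02 (1.82, adjusted p = 0.00165). Chordc1 and Hspe1 were the other genes of the list that differed from Cre-Mlo, and none passed the test of a difference from FxE HA. Medians of the list were 0.82, 1.40 and 0.09, with 1 member called higher and 2 called lower in Cre-Mlo cells.

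Of 14 class II genes 5, 12 and 10 were called lower in GFPpos, FxE HA and Cre-Mlo cells, with medians of −1.62, −2.34 and −1.45. H2-Eb1 differed by −3.93, −5.57 and −2.58. Only H2-Oa, a chain of the H2-O modulator of peptide loading, differed between comparisons, with −0.51 in GFPpos and −2.37 in FxE HA cells (limma adjusted p = 0.0166). Tap1 fell by 1.85 in GFPpos and by 1.39 in FxE HA cells but had −0.20 in Cre-Mlo cells (contrast with Cre-Mlo −1.65, SE 0.19, adjusted p = 0.00165). Cre-Mlo and Ctrl-Mhi cultures both held interferon-αβ, unlike those of the other groups, and its part in this contrast was not tested.

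Cell cycle genes had larger negative values in GFPpos cells than in either other comparison. Medians of the mitosis list were −2.12 in GFPpos, −0.70 in FxE HA and −0.88 in Cre-Mlo cells, and those of the replication list were −1.60, −0.27 and −0.42. No mitosis gene of the list differed between comparisons after adjustment, and of the replication list Cdc6, an origin licensing factor, did, with −2.36 in GFPpos and 0.28 in FxE HA cells (limma adjusted p = 0.0189). Haus5 (−3.56 and −0.39, adjusted p = 0.0114) and H1f10 (−3.30 and 0.30, adjusted p = 0.00165) differed from FxE HA as well. The strains, the cultures and the sort before culture differ between these sets, and none of them can be told apart from the cell source.

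**Figure D5:**
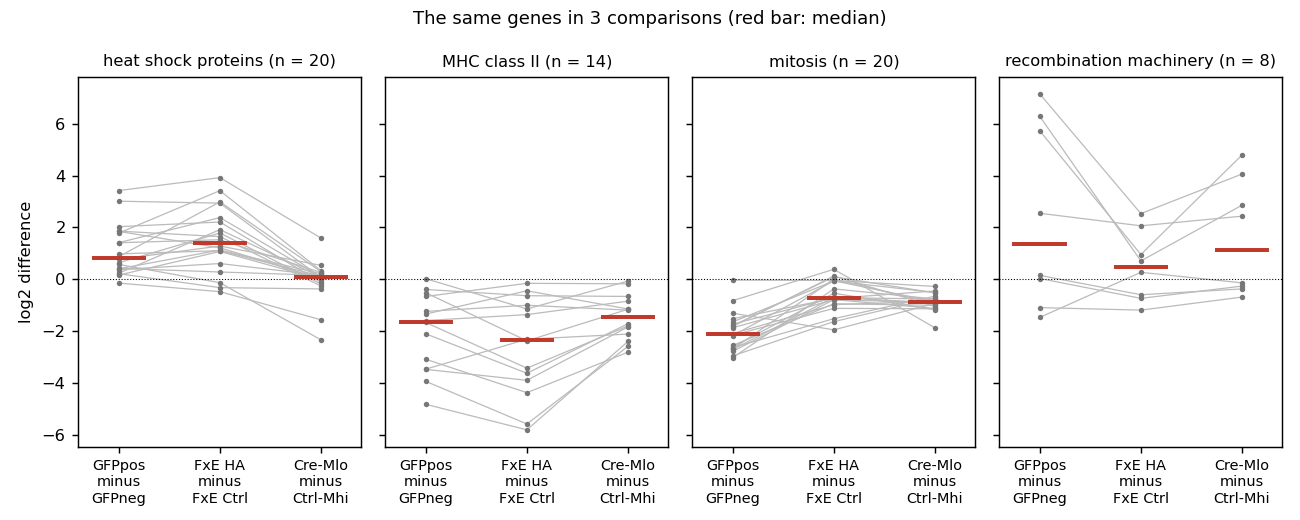
Log2 differences of the measured heat shock (20), MHC class II (14), mitosis (20) and recombination (8) genes in GFPpos minus GFPneg, FxE HA minus FxE Ctrl and Cre-Mlo minus Ctrl-Mhi, with a grey line for each gene and red bars for medians. Heat shock medians are 0.82, 1.40 and 0.09, and class II medians lie below −1 in all 3.

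Of the genes the study names, 42 were measured by a probe set that matches 1 gene. They were chosen on arrays of this series, so their direction is not independent evidence. In GFPpos cells 6 of them rose, 6 fell and 30 did not pass. With the methods' t-test at p under 0.01, at least 2-fold between means and over 200 units apart, 183 probe sets passed, 64 higher and 119 lower, and 99 of them were also called by limma. After Benjamini-Hochberg adjustment of that test 1 remained.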

How the data were processed

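Labelled RNA of sorted cells was hybridised to Affymetrix U74Av2 arrays, 1 array per sample. The deposited intensity of each probe set is a linear signal that the authors computed with Microarray Suite 5.0 and scaled to 1500 units per array after masking faulty probe sets of the array. Detection p-values were not used here, so signals under 20 units were set to 20 before log2. The 6 arrays were fitted in limma (version 3.58.1, R 4.3.3) with a mean per group. Differences between comparisons came from limma contrasts with the arrays of both in the fit. The calls within FxE HA and Cre-Mlo came from the same joint fits. A probe set was called at a Benjamini-Hochberg adjusted p under 0.05 over all 9977. Of these, 8724 matched 1 gene, 346 several and 907 none in the platform annotation. The methods' t-test was run on the same arrays. The fits were tested on simulated data. The number of arrays, 3 in each group, limits the precision.

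Named genes were those the study names, the 12 largest called rises and falls, and up to 4 members of each list by adjusted p. Of several probe sets to a gene the brightest is given. Others, such as Hspe1, Fkbp4, Hspa1b, H2-Aa, Cdc6, Mef2c, Spib, Polm, Xrcc5, Prkdc, Hmgb2, Jchain, Api5 and Commd9, were chosen after their values were seen. Members and lists were chosen with earlier results of these data known. Promoter windows and gene order are RefSeq's (GRCm38.p6). Alternatives were the floor, a filter on dim probe sets, quantile normalization, an intensity trend, all 37 arrays of the platform in 1 fit, a replicate block and leaving out each array. A second platform's arrays were not used here.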

Additional observations from a re-analysis of the deposited data

Results flagged for a closer look

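The comparison of GFPpos with GFPneg cells differed from that of FxE HA with FxE Ctrl cells for 10 named genes, tested as a contrast of both differences in limma over all probe sets. Positive contrasts were 5.57 for Rag2 (adjusted p = 0.0105), 4.61 for Rag1 (0.000511), 3.61 for Epha2 (0.0188), 2.91 for Cd72, an inhibitory coreceptor (0.0141), 2.71 for Sox4 (0.0188), 2.03 for Irf4 (0.0105) and 1.85 for H2-Oa (0.0166). Negative contrasts were −3.60 for H1f10 (0.00165), −3.21 for Car2, a carbonic anhydrase (0.0166), and −3.17 for Haus5 (0.0114). Cd72 had −1.01 in GFPpos and −3.92 in FxE HA cells, and Car2 had −1.12 in GFPpos and 2.10 in FxE HA cells. GFPpos cells were sorted for the Rag2 reporter and FxE HA cells were not. Rag2 is thus tied to the gate and Rag1 is its partner, so both of their contrasts are given as descriptions.

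The same contrast with Cre-Mlo against Ctrl-Mhi cells was past the threshold for 7 named genes. It was 3.42 for Rag2 (limma adjusted p = 0.00674), 3.09 for Rag1 (0.000548), 2.94 for Hsph1 (0.000508), 2.15 for Hspa8 (0.00165), 1.82 for Dnaja1 (0.00165), 1.15 for Chordc1 (0.0204) and −1.65 for Tap1 (0.00165). The cells, cultures and gates differ between the comparisons and cannot be told apart. Cre-Mlo cells were not sorted for the Rag2 reporter, and Rag1 and Rag2 start from unlike control levels. Both of these contrasts are given as descriptions.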

How the results depend on the processing

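Of the 53 called genes picked by the naming rule, none changed sign under any alternative run. Hspe1 and Fkbp4, chosen after their values were seen, are not among the 53. At a floor of 100 units 51 of the 53 stayed called, and 38 at a floor of 1 unit. After quantile normalization 47 stayed called, 53 with an intensity trend and 49 with all 37 arrays in 1 fit. Of the same 53, 22 stayed called without GFPpos 1, 6 without GFPpos 3, 1 without GFPpos 2, GFPneg 1, GFPneg 2 or GFPneg 3, and 0 with the replicate block. The probe sets called, 258 in all with 137 higher and 121 lower, became 494 (263 higher, 231 lower) at a floor of 100 units and 136 (72 higher, 64 lower) at a floor of 1 unit. They became 736 (345 higher, 391 lower) with a mean signal of at least 200 units, 731 (366 higher, 365 lower) with an intensity trend and 663 (290 higher, 373 lower) with all 37 arrays. Quantile normalization gave 235. The cause of these shifts was not tested. Leaving out 1 array gave 1 to 91 calls, 1 to 48 higher and 0 to 43 lower: 91 without GFPpos 1, 10 without GFPpos 3 and 1 without GFPpos 2, GFPneg 1, GFPneg 2 or GFPneg 3, with fewer arrays in the fit.

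With the replicate number as a block there were 0 calls in limma (0 higher, 0 lower). Deviations of same-numbered arrays correlated at 0.0268, −0.0223 and 0.0540. These values cannot tell whether same-numbered arrays came from the same experiment, which the methods do not give. The main fit did not use this pairing.

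The 37 probe sets that differed from FxE HA became 160 at a floor of 100 units, 96 with a mean of at least 200 units and 104 with an intensity trend, and 21 to 64 without 1 array, the lowest without GFPneg 1 and the highest without GFPpos 1. The 38 that differed from Cre-Mlo became 109, 74 and 123 under the same settings, and 24 to 56 without 1 array, the lowest without GFPneg 2. The 183 probe sets passing the methods' criteria became 1 after adjustment of the p-values and 88 to 141 without 1 array, with 88, 91, 97 and 110 without GFPpos 2, GFPpos 3, GFPneg 2 and GFPneg 3. The brightest Igkv9-120 probe set, not called at −0.19, had −0.391 to 0.031 without 1 array, and was above 0 without GFPneg 1. Signals near the floor, such as those of Prm1, Pole2 and Cdh5, limit the size of their differences.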
